A study of Mus musculus with 2 samples.

Results

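The genes described here make, sense and remove adenosine, a nucleoside that accumulates outside cells when released ATP is broken down. They were chosen by symbol, 10 of the 24346 gene symbols measured, and all 10 were found in both libraries. RNA was sequenced from Gr-1+ CD11b+ cells, the myeloid gate that takes in neutrophils and inflammatory monocytes, isolated from BALB/c mice that received 3% dextran sulfate sodium, a polymer that causes colitis, for 6 days. The sources used here do not state the age, the number or any pooling of the mice. One library (n = 1) came from cells stimulated for 2.5 hours with ATPγS, a slowly hydrolysed ATP analogue, at a labelled dose of 100 whose molar prefix is unreadable. The other library (n = 1), the control, came from such cells from DSS-treated mice stimulated without ATPγS. A protocol text shared by both libraries names ATPγS, so the groups rest on the titles and the treatment label. With 1 library per condition no test was possible, and every difference below describes those libraries only.

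Extracellular AMP is cut to adenosine by CD73, the product of Nt5e. Adenosine then acts on receptors encoded by Adora1 and Adora3, which couple to inhibitory G proteins, and by Adora2a and Adora2b, which couple to the stimulatory G protein and raise cAMP. Signalling ends when adenosine is carried into cells, chiefly through the equilibrative transporter of Slc29a1, and is phosphorylated back to AMP by adenosine kinase (Adk) or deaminated to inosine by adenosine deaminase (Ada). Purine nucleoside phosphorylase (Pnp) cleaves inosine further, and Slc29a3 encodes an equilibrative transporter of intracellular membranes, mainly lysosomal. In neutrophils, signalling through Adora2a is known for restraining the oxidative burst.

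Levels are FPKM, fragments scaled by transcript length and library size, so genes of different length can be compared within a library. The depth recovered from the steps of low values was 2848000 fragments in the ATPγS library and 2132000 in the control. On this depth the 10 genes rested on about 19 to 218 reads each per library, and the 95% intervals given with ratios are exact binomial intervals of those reads, which cover counting error only. Genes of the antigens used for isolation were listed well above 0, with Itgam (CD11b) at 144 FPKM in the ATPγS library and 112 FPKM in the control, and the Gr-1 antigen genes Ly6c1 at 166 and 133 FPKM and Ly6c2 at 63.7 and 70.9 FPKM in the same order. Ly6g, the other Gr-1 antigen gene, was among the neutrophil markers chosen, but the deposited values hold no entry under that symbol. These antigen genes were added after their values were seen. As a gauge of stray reads, 1467 olfactory, vomeronasal and trace-amine receptor genes, which myeloid cells are not known to use as a class, had a median of 2.21 FPKM and a 95th percentile of 15.6 FPKM in the ATPγS library, against 1.94 and 15.8 FPKM in the control.

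Promoter sequences are shown for the 4 genes on which the results below turn, Adk as the most abundant gene with the lowest ratio, Adora3 and Adora1 as those with the highest ratios, and Adora2b as the most abundant receptor. Each is the 250 bases before the first start in RefSeq's table (GRCm38.p6), and capitals mark matches, on either strand, to 5 motifs: the cAMP response element core TGACG, the hypoxia response core ACGTG, the AP-1 site TGANTCA, the NF-κB site (GGGA, then CC after 4 free bases) and the GC box GGGCGG. No matches overlapped in these windows.
Adk, chr14:21052324-21052573, plus strand: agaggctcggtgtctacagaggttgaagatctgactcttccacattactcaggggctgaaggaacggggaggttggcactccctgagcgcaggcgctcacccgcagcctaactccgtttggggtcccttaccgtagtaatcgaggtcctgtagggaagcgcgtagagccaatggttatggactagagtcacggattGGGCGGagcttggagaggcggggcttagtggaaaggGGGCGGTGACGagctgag
Adora3, chr3:105904171-105904420, plus strand: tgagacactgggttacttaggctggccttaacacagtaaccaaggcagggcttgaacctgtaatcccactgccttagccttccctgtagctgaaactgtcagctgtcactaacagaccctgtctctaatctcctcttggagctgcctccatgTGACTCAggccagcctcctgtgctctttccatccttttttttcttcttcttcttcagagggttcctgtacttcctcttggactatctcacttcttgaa
Adora1, chr1:134235458-134235707, minus strand: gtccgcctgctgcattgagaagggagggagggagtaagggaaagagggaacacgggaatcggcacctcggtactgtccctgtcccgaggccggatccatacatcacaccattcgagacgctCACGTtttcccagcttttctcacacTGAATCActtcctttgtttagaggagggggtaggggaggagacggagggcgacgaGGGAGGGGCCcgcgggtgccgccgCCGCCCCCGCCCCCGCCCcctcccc
Adora2b, chr11:62248734-62248983, plus strand: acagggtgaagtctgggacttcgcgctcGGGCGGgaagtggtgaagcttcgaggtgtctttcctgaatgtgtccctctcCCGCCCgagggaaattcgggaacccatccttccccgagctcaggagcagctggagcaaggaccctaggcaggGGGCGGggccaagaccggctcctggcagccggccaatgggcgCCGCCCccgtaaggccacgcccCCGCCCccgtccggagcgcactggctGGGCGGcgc

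The windows differ in composition, from 48.8% G and C bases in Adora3 to 69.6% in Adora2b, where the median of all 32851 windows was 52.4%. Adora2b held 6 GC boxes and no other motif, and Adora3 held a single AP-1 site, which began 98 bases before the start. Adora1 held an AP-1 site that began 104 bases before its first start. The 9 genes in the table had 18 windows, 8 of them of Slc29a1, so the window counts weigh that gene most. An AP-1 site stood in 2 windows, of Adora1 and Adora3, while 6.75% of all windows held such a site. A cAMP response element core stood in 2 windows, of Adk (beginning 12 bases before the start) and Slc29a1, against 17.8% of all windows. The hypoxia core stood in 4 windows, of Adora1 and Slc29a1 (16.6% of all windows), the NF-κB site in 6 windows, of Adora1, Ada, Nt5e and Slc29a1 (17.6%), and the GC box in 12 windows, of every gene in the table except Adora3 (32.7%). These matches describe the letters of the windows and not binding.

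Adenosine kinase was the most abundant transcript of the group in either library, and it showed the lowest ratio. Adk (chromosome 14, 21052574 to 21448569) was listed at 29.9 FPKM in the ATPγS library and at 56.9 FPKM in the control. Its ratio of 0.526 (0.425 to 0.650), about 153 and 218 reads in ATPγS and control, is a 1.90-fold lower level with ATPγS. Among the 3480 genes with a mean of at least 20 FPKM, 6.35% had a lower log2 ratio than Adk. In these bulk samples fewer cells of a type and less RNA per cell cannot be told apart.

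The other clearance enzymes differed less. Pnp (chromosome 14, 50944303 to 50953412) was listed at 19.96 FPKM in the ATPγS library and 28.5 FPKM in the control, a ratio of 0.700 (0.563 to 0.869). Of the same 3480 genes, 20.9% had a lower log2 ratio, so its place was well inside the spread. Its neighbour Pnp2, a close copy with 97.3% identity over 1083 aligned bases of the main transcripts, was listed at 0.805 and 1.43 FPKM in ATPγS and control. Reads shared between the copies make the split between them uncertain. Ada (chromosome 2, 163726571 to 163750239) was nearly level at 8.74 FPKM with ATPγS and 8.27 FPKM in the control, with an interval of the ratio of 0.645 to 1.75.

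CD73, the enzyme that makes adenosine from AMP, was listed higher with ATPγS. Nt5e (chromosome 9, 88327609 to 88372089) had 13.9 FPKM in the ATPγS library and 9.46 FPKM in the control. The ratio of 1.47 (1.12 to 1.95) rested on about 158 and 81 reads, ATPγS first. Among the 6412 genes with a mean of 5 to 20 FPKM, 22.6% had a higher log2 ratio than Nt5e.

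**Figure D1:**
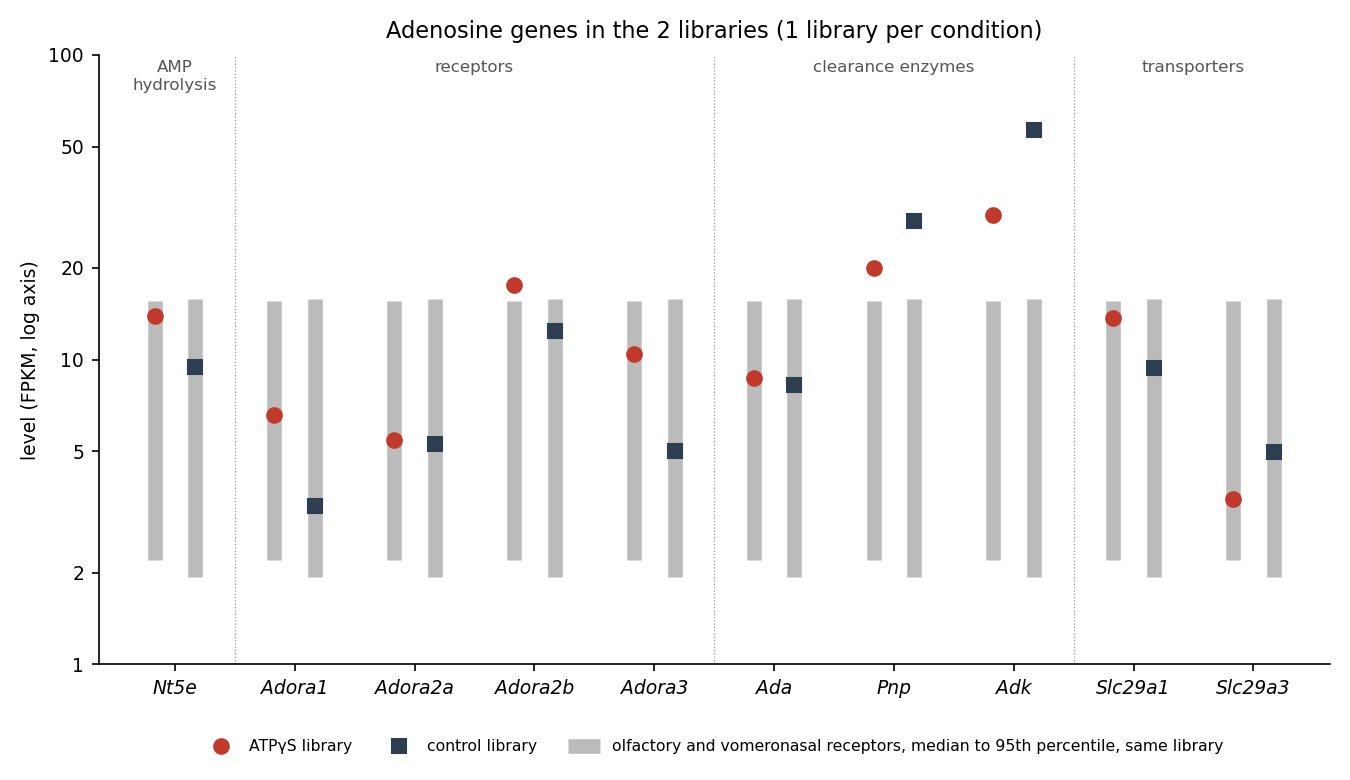
Level of each adenosine gene in FPKM on a log axis, circles for the ATPγS library and squares for the control (1 library each), grouped by role. Grey bars run from the median to the 95th percentile of 1467 olfactory, vomeronasal and trace-amine receptor genes in the same library; Adk and Pnp stand above them in both libraries and Adora2b (17.6 FPKM) with ATPγS only.

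The transcript ratio of Adk to Nt5e, read within each library, differed between the libraries by more than counting error. It combines the 2 differences given above, and how often other gene pairs differ as much was not tested. Enzyme activity was not measured. Adk was 2.15 times Nt5e in the ATPγS library (1.71 to 2.70) and 6.01 times Nt5e in the control (4.64 to 7.86), and these intervals do not overlap. Adk was 3.42 times Ada with ATPγS (2.42 to 4.94) and 6.87 times Ada in the control (4.68 to 10.4), with intervals that overlap. Ada was 0.628 times Nt5e with ATPγS (0.436 to 0.887) and 0.875 times Nt5e in the control (0.555 to 1.34). Adk therefore led Ada in both libraries at the transcript level.

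The 4 receptors lay on the higher side or level with ATPγS, and their summed level was 40.1 FPKM in the ATPγS library and 26.1 FPKM in the control, a ratio of 1.54. Adora2b (chromosome 11, 62248984 to 62266452), the low-affinity stimulatory receptor, was the most abundant at 17.6 FPKM with ATPγS and 12.4 FPKM in the control. The interval of its ratio of 1.42 (0.992 to 2.05) includes no difference. Adora2a (chromosome 10, 75316877 to 75334792), the receptor best known for restraining neutrophils, was listed at 5.44 and 5.30 FPKM in ATPγS and control, with an interval of the ratio of 0.621 to 1.72.

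The receptors that couple to inhibitory G proteins had the highest ratios of the group. Adora3 (chromosome 3, 105904421 to 105908928) was listed at 10.4 FPKM in the ATPγS library and at 5.03 FPKM in the control, a ratio of 2.07 (1.21 to 3.70) from about 53 and 19 reads. Adora1 (chromosome 1, 134199215 to 134235457) was listed at 6.59 FPKM with ATPγS and 3.32 FPKM in the control, a ratio of 1.98 (1.33 to 3.02) from about 93 and 35 reads. Both ratios were inside the spread of genes of like level. Of 6412 genes with a mean of 5 to 20 FPKM, 11.9% had a higher log2 ratio than Adora3. Of 8419 genes with a mean of 1 to 5 FPKM, 26.3% had a higher one than Adora1. The mean of Adora1, 4.95 FPKM, lies just under the edge between these bands. The 75th percentile of the log2 ratios was 0.86 in its own band and 0.45 in the band above.

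These receptor levels sit among those of genes read as background. Adora3 stood at percentile 89.98 of those background receptors in the ATPγS library and 73.7 in the control, and Adora1 at 79.9 and 62.8 in that order. Adora2a stood at percentile 75.3 with ATPγS and 74.6 in the control. Adora2b was higher, at 96.8 with ATPγS and 91.8 in the control. Of the 10 genes, 3 exceeded the 95th percentile of that background in the ATPγS library (Adk, Pnp and Adora2b) and 2 in the control (Adk and Pnp). Reads in Adora1 can also stem from Mybph, which overlaps its exons on the other strand and was listed at 1.51 and 0.224 FPKM in ATPγS and control, since the preparation does not mark strand. Adora3 shares exon bases on its own strand with Tmigd3, which was listed at 2.55 FPKM with ATPγS and 2.92 FPKM in the control.

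Adora2b made up the largest share of receptor transcripts in either library, 44.0% with ATPγS (37.7 to 50.3) and 47.7% in the control (38.5 to 56.7). Adora3 made up 26.0% (20.3 to 32.2) with ATPγS and 19.3% (12.2 to 28.1) in the control. Adora1 took 16.4% (13.2 to 20.2) with ATPγS and 12.7% (8.78 to 17.8) in the control, a control share that is 7.54% once the background receptor median is subtracted. Adora2a had a lower share with ATPγS, 13.6% (9.87 to 18.1), against 20.3% (14.0 to 28.0) in the control. Together the inhibitory pair Adora1 and Adora3 held 42.5% with ATPγS and 32.0% in the control. The intervals of each single receptor overlap between the libraries.

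**Figure D2:**
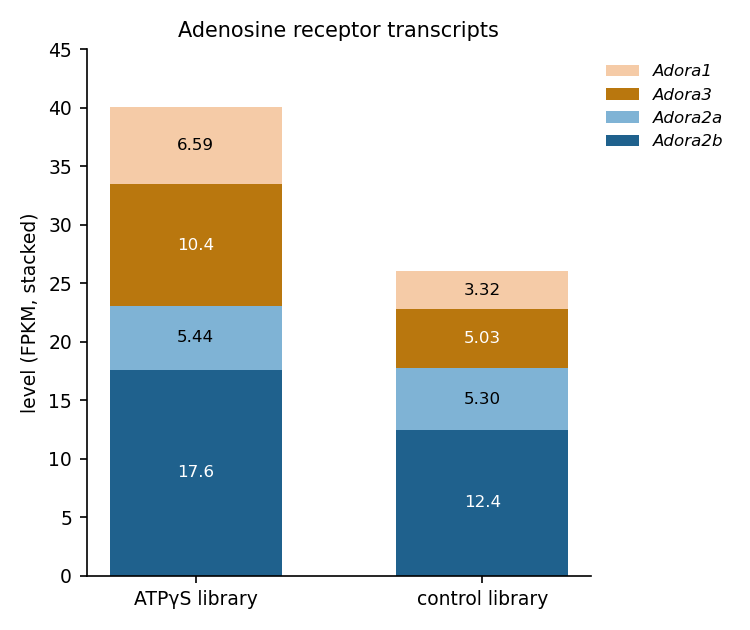
Stacked FPKM of the 4 adenosine receptor genes in the ATPγS library (left) and the control library (right), with each value printed in its segment. The stack reaches 40.1 FPKM with ATPγS and 26.1 FPKM in the control, with Adora2b the largest segment of each; the Adora3, Adora2b and Adora1 segments are taller with ATPγS and that of Adora2a is level.

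The transporters went in opposite directions. Slc29a1 (chromosome 17, 45585200 to 45599618), of the plasma membrane carrier that clears extracellular adenosine, was listed at 13.7 FPKM in the ATPγS library and 9.36 FPKM in the control. The interval of its ratio of 1.47 (0.993 to 2.19) just includes no difference, and with the longest transcript model it is 1.01 to 2.16. Slc29a3 (chromosome 10, 60712072 to 60752849), of the lysosomal carrier, was listed at 3.50 FPKM with ATPγS and 4.97 FPKM in the control, a ratio of 0.705 (0.473 to 1.05). Its level stood at percentile 62.4 of the background receptors with ATPγS and at percentile 73.3 in the control.

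Ranked by level, the order with ATPγS was Adk, Pnp, Adora2b, Nt5e, Slc29a1, Adora3, Ada, Adora1, Adora2a and Slc29a3. In the control it was Adk, Pnp, Adora2b, Nt5e, Slc29a1, Ada, Adora2a, Adora3, Slc29a3 and Adora1. With ATPγS, neighbours in the order differed beyond counting error for Adk over Pnp (1.499 times, 1.20 to 1.88) and for Adora2a over Slc29a3 (1.55 times, 1.002 to 2.39). In the control they did so for Adk over Pnp (1.99 times, 1.63 to 2.44) and for Pnp over Adora2b (2.29 times, 1.66 to 3.22). The other neighbours could not be separated at this depth.

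For counts across genes, 1 was added to each FPKM before the log2 ratio of ATPγS over control was taken, which shrinks the ratios of low genes. A 2-fold ratio on that scale was counted at a mean of at least 1 FPKM. On this scale 0 of the 10 genes were at least 2-fold higher with ATPγS, where 13.8% of 18311 genes were, and 0 were at least 2-fold lower, where 9.91% were. The share of all genes past 2-fold depended on level, with 21.2% higher and 10.9% lower at a mean of 1 to 5 FPKM (Adora1 and Slc29a3), 10.3% and 11.2% at 5 to 20 FPKM, and 2.30% higher (174 of 3480 genes lower) at 20 FPKM or more (Adk and Pnp). The values ran from -0.90 for Adk to 0.92 for Adora3, with 7 above 0 and 3 below. Their median of 0.27 compares with 0.01 over all genes counted. At 1.5-fold, 2 genes were higher (Adora3 and Adora1), where 24.1% of all genes were, and 1 was lower (Adk), where 20.7% were. The counting interval left out no difference for 5 of the 10. It lay wholly above 1 for 3 (Nt5e, Adora1 and Adora3), where it did for 21.8% of the 16920 genes with at least 1 read in each library, and wholly below 1 for 2 (Adk and Pnp), where it did for 23.7%. These counts are near those shares.

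**Figure D3:**
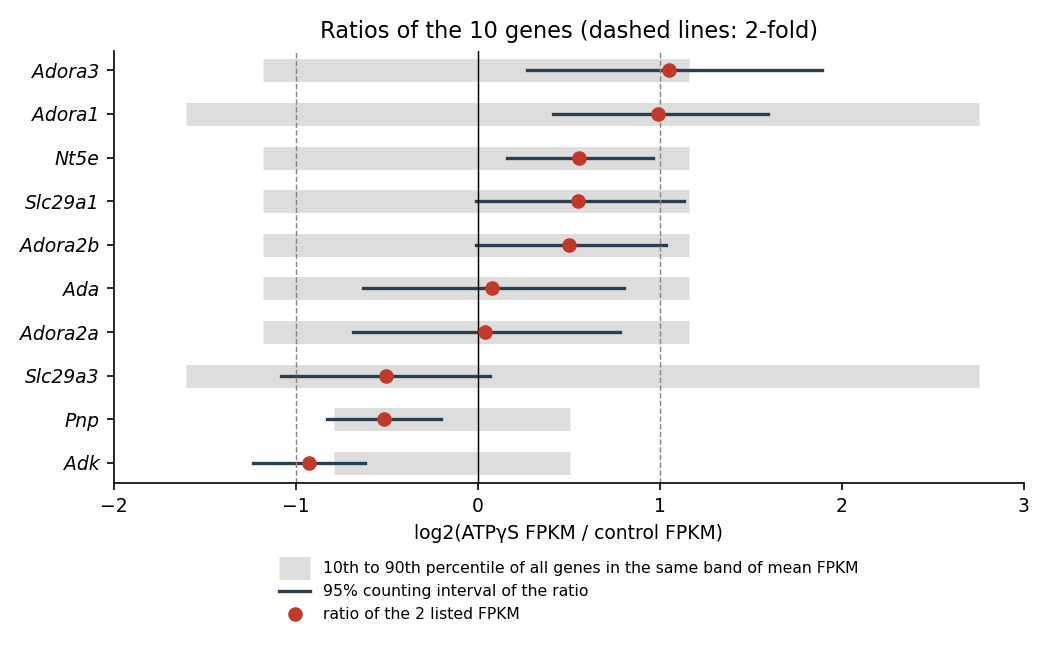
Ratio of the listed FPKM, ATPγS over control, on a log2 axis for each of the 10 genes, with its 95% counting interval (line) and the 10th to 90th percentile of all genes in the same band of mean FPKM (grey bar; bands 1 to 5, 5 to 20 and at least 20). Adk (0.526) lies below the grey bar of its band, which starts at a ratio of 0.579, and the other 9 points lie inside theirs.

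In a list of other possible adenosine sources, which takes in nucleotidase genes as a family, the counts past 2-fold were near the shares of all genes. Of 11 with a mean of at least 1 FPKM, 1 was past 2-fold on the higher side with ATPγS (13.8% of all genes) and 1 on the lower (9.91%), and the median log2 ratio was -0.10. Ahcy, of the enzyme that releases adenosine from S-adenosylhomocysteine, was listed at 10.1 FPKM with ATPγS and 4.04 FPKM in the control, with a ratio of 2.50 (1.54 to 4.24). Ahcyl1, of a relative of that enzyme known as a regulator of the inositol trisphosphate receptor, was listed at 14.1 FPKM with ATPγS and 31.0 FPKM in the control, with a ratio of 0.456 (0.368 to 0.563). Entpd1 (CD39), which feeds AMP to CD73, was the most abundant and level at 139 and 141 FPKM in ATPγS and control. Whether the products of the cytosolic nucleotidase genes in this list form adenosine in these cells was not tested. Among them Nt5c3 (29.5 and 46.7 FPKM) and Nt5c (22.0 and 34.4 FPKM) were lower with ATPγS, which comes first in each pair. Other cytosolic nucleotidase genes, added after their values were seen, were higher: Nt5c3b had 10.7 FPKM with ATPγS and 4.87 FPKM in the control (ratio 2.199, 1.20 to 4.26), and Nt5c2 had 12.5 and 7.63 FPKM in that order (1.64, 1.20 to 2.25).

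Among other nucleoside transporters, 3 reached a mean of 1 FPKM, with a median log2 ratio of -0.00241. Of these, 0 were past 2-fold on the higher side (13.8% of all genes) and 1 on the lower (9.91%). Slc29a2, of a second equilibrative carrier, was that one, at 0.839 FPKM with ATPγS and 2.72 FPKM in the control, on only about 6 and 15 reads (ratio 0.308, 0.0980 to 0.841). The concentrative carrier genes Slc28a2 (9.17 and 8.92 FPKM) and Slc28a3 (4.98 and 4.99 FPKM) were level between ATPγS and control. In purine clearance and salvage, 0 of 18 genes passed 2-fold on either side once 1 was added to each FPKM. Among all genes 13.8% were higher and 9.91% lower, and the median of the list was -0.07. Among its abundant genes were Aprt (53.2 and 74.4 FPKM), which salvages adenine, and Impdh2 (51.1 and 38.5 FPKM), of guanine nucleotide synthesis, each with ATPγS before control. Without the added 1, the ratios of Adal and Ampd1, named after their values were seen, were past 2-fold. Adal had 3.90 FPKM with ATPγS and 8.39 FPKM in the control (0.464, 0.273 to 0.775). Ampd1 had 2.16 and 0.680 FPKM in that order, on about 14 and 3 reads (3.18, 0.888 to 17.3).

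Genes of receptor coupling (G proteins, adenylyl cyclases and cAMP effectors) lay mostly on the lower side, 12 of 17 below 0 with a median log2 ratio of -0.43. Of those 12, 3 (Gnaq, Gna11 and Gna15) encode G proteins that act through phospholipase C and not through cAMP. For comparison, the median log2 ratio of all genes was 0.19 at a mean of 1 to 5 FPKM. It was -0.06 at 5 to 20 FPKM and -0.12 at 20 FPKM or more. In the whole coupling list, 3 were at least 2-fold higher with ATPγS (13.8% of all genes) and 2 at least 2-fold lower (9.91%). These counts are near those shares. The stimulatory G protein gene Gnas was listed at 145 FPKM with ATPγS and 203 FPKM in the control (ratio 0.715, 0.661 to 0.772). The inhibitory G protein gene Gnai2 stood at 169 and 203 FPKM in ATPγS and control. Prkar1a, a regulatory subunit of protein kinase A, stood at 127 and 143 FPKM. Gnai3 and Gnai1, also inhibitory and named after their values were seen, had lower ratios than Gnai2. Gnai3 had 60.2 FPKM with ATPγS and 107 FPKM in the control (0.564, 0.505 to 0.631). Gnai1 had 1.45 and 3.40 FPKM in that order, on about 13 and 23 reads (0.428, 0.199 to 0.880). With 1 added to each FPKM, the pair at least 2-fold lower was Gna15 and Prkacb. Gna15 (4.65 FPKM with ATPγS and 12.4 FPKM in the control) encodes a G protein of blood cells that activates phospholipase C. Prkacb (4.43 and 11.7 FPKM in that order) encodes a catalytic subunit of protein kinase A. The higher ones were the cyclase genes Adcy6 (8.06 FPKM with ATPγS and 3.49 FPKM in the control) and Adcy9 (5.34 and 1.61 FPKM), and Rapgef4 (11.5 and 4.06 FPKM), of a cAMP-activated exchange factor. Adcy9 lies in the band of 1 to 5 FPKM and the other 4 genes past 2-fold in that of 5 to 20 FPKM, where the shares of all genes past 2-fold are those given above.

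Genes known to rise with cAMP were not uniformly higher. Of 14, 1 was at least 2-fold higher with ATPγS (13.8% of all genes) and 0 at least 2-fold lower (9.91%). In this list 11 were above 0 and 3 below. Its median log2 ratio was 0.14, against 0.01 over all genes counted. Per1, a clock gene and cAMP target, was listed at 5.50 FPKM with ATPγS and 0.979 FPKM in the control, a ratio of 5.62 (2.89 to 12.2) from about 73 and 10 reads. The most abundant genes differed less, here with ATPγS first. They were the nuclear receptor gene Nr4a1 (364 and 315 FPKM), the matrix protein gene Thbs1 (132 and 119 FPKM) and the cAMP phosphodiesterase gene Pde4b (99.2 and 123 FPKM). Further genes were added after their values were seen. Nr4a3 had 43.3 FPKM with ATPγS and 23.3 FPKM in the control (ratio 1.86, 1.62 to 2.15). Nr4a2 had 22.8 and 12.6 FPKM in that order (1.81, 1.42 to 2.33). Rgs2 was lower, at 45.8 and 59.9 FPKM (0.765, 0.663 to 0.882).

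**Figure D4:**
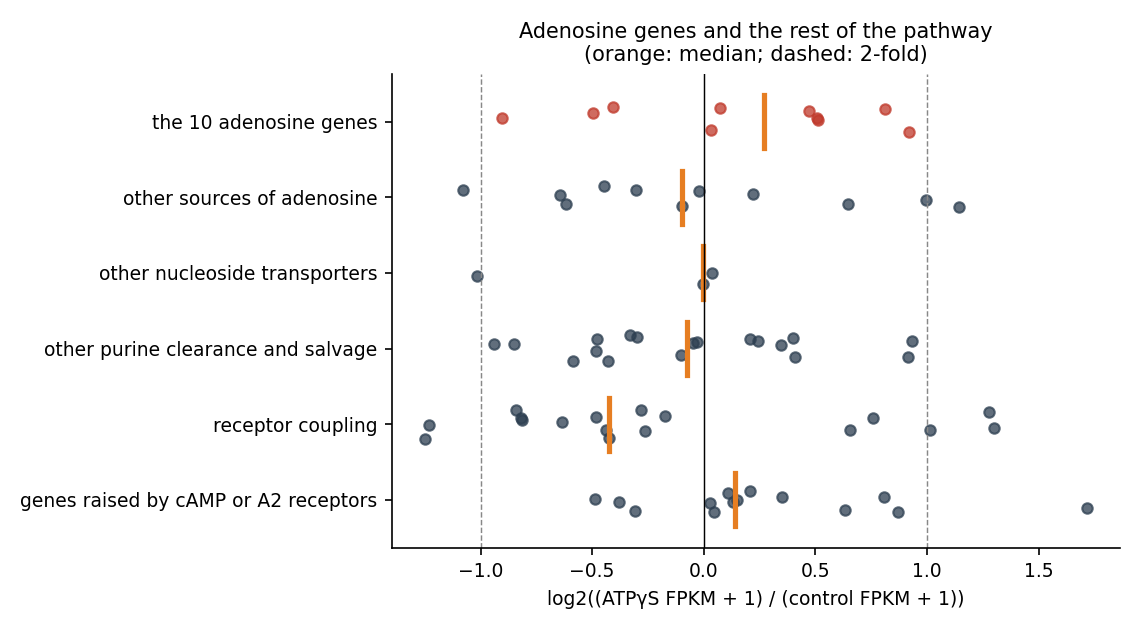
Log2 ratio, log2((ATPγS FPKM + 1) / (control FPKM + 1)), of every gene with a mean of at least 1 FPKM in the adenosine group (red) and in 5 lists of the surrounding pathway (dark), with list medians in orange and 2-fold as dashed lines. The adenosine genes stay between the dashed lines around a median of 0.27, and the receptor coupling list has its median at -0.43.

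Markers of other cells differed in level between the libraries, and their part in the adenosine gene values was not tested. The counts past 2-fold below stand beside 13.8% of all genes higher and 9.91% lower. At a mean of 1 to 5 FPKM those shares were 21.2% and 10.9%. The 10 T and NK cell markers, of cells that also use Nt5e, Ada and Adora2a, summed to 92.1 FPKM with ATPγS and 261 FPKM in the control, with 6 of 10 at least 2-fold lower and 1 higher (Cd3g log2 ratio -1.92, Lck -1.62, range -2.65 to 1.08). The 8 B cell markers summed to 267 FPKM with ATPγS and 349 FPKM in the control (of 7 with a mean of at least 1 FPKM, 1 was at least 2-fold higher and 1 lower, Cd79a -0.63, Cd79b 0.02, range -1.05 to 1.36). The 10 markers of eosinophils, basophils and mast cells, which are known to use Adora3, summed to 78.8 FPKM with ATPγS and 118 FPKM in the control (4 of the 9 with a mean of at least 1 FPKM at least 2-fold lower, Ccr3 -0.43, Siglecf -0.48, range -1.88 to 0.94). The 10 macrophage and dendritic cell markers summed to 793 FPKM with ATPγS and 626 FPKM in the control (2 past 2-fold on the higher side and 1 on the lower, Cd68 0.13, Adgre1 0.52, range -2.28 to 1.38). The 6 monocyte markers summed to 282 FPKM with ATPγS and 300 FPKM in the control, with 5 of 6 below 0 and none past 2-fold (Ms4a6c -0.05, Ly6c2 -0.15, range -0.82 to 0.09). The 9 neutrophil markers measured summed to 42587 FPKM with ATPγS and 39583 FPKM in the control, mostly S100a8 and S100a9 (0.12 each), with 4 of 9 below 0 and none past 2-fold (range -0.28 to 0.21). The 8 platelet and red cell markers summed to 724 and 777 FPKM in that order (4 of the 6 with a mean of at least 1 FPKM at least 2-fold higher, Hba-a1 -0.24, Pf4 1.89, range -0.24 to 1.89), with Gp9 listed at 0 in both libraries, and the 10 epithelial, endothelial and fibroblast markers to 457 and 449 FPKM (Col3a1 0.09, Col1a2 0.31, 4 of 10 below 0, none past 2-fold, range -0.65 to 0.48).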

How the data were processed

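RNA was measured in 2 libraries, 1 with ATPγS and 1 without. Full-length cDNA (SMART-Seq HT) was made into Nextera libraries, per the labels' protocols, a preparation that does not mark strand. The deposited values are FPKM per gene symbol, and per the submitters' processing notes they came from Cufflinks 2.2.1 with TopHat2 2.0.13, SAMtools 0.1.19, Bowtie2 2.2.3 and the build mm10. Annotation and options: not given in the sources used here. FPKM are not counts, so no count test was run, and with 1 library per group no p-value was computed.

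Library totals were taken where FPKM multiplied by coding length gave most whole reads over 1131 background receptor genes of 1 coding length each, where 69.6% (ATPγS) and 69.7% (control) of values under 10 reads came out whole within 0.05 reads (chance gives 10%). Reads per gene used the median length of GENCODE M21 transcripts (GRCm38, the build of mm10) paired with a RefSeq mRNA, or of all its transcripts where none is paired, so they are approximate. Intervals are 95% Clopper-Pearson (scipy 1.17.1). For a receptor share, the other receptors were pooled. Positions come from RefSeq (GRCm38.p6).

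The 10 genes, the 5 pathway lists and the 8 marker lists were chosen with earlier results of these data known. Named were the 10 genes, pathway genes past 2-fold, the 3 most abundant of each pathway list and the 2 most abundant of each marker list. One gene that this rule names is not reported here. With 2 libraries any genes correlate fully, so none is named as most alike. Tried as alternatives were a pseudocount of 0.1 or 5, equal library sums, a median ratio set to 1 among genes with a mean FPKM of 10 or more, no filter, a filter at 5 FPKM, thresholds of 1.5-fold and 3-fold, the mean in place of the median, subtraction of the background receptor median, background receptors listed above 0 only and, chosen after seeing the data, the shortest and longest transcript models. The steps were tested on simulated data.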

Additional observations from a re-analysis of the deposited data

How the results depend on the processing

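The log2 ratios of Adk, Pnp and Slc29a3 stayed below 0 under both rescalings. A change of pseudocount cannot alter a sign. Both rescalings raise ratios, so the genes above 0 could not change sign either. The median of the 10 genes ran from 0.15 (mean in place of median) to 0.39 (rescaled to a median of 0). Adora3 alone sits at the 2-fold threshold, so the count of genes at least 2-fold higher was 1 with a pseudocount of 0.1 (log2 ratio 1.04) and 1 after rescaling to a median of 0 (1.04), and 2 at 1.5-fold; the count at least 2-fold lower was 1 at 1.5-fold. Genes with a mean of at least 10 FPKM had a median log2 ratio of -0.13, which the rescalings raise by 0.05 (same sum) and 0.13 (median 0). The shift of 0.13 is larger than the log2 ratios of Ada (0.07) and Adora2a (0.03) as deposited. As the shifts are upward, they could not take these genes below 0. Counts over all genes, higher and lower with ATPγS, were 561 and 461 with a pseudocount of 5, 740 and 894 at a mean of at least 5 FPKM, 4408 and 3782 at 1.5-fold and 1154 and 611 at 3-fold, against 2521 and 1815 as reported. Counts over the 5 pathway lists were 5 higher and 4 lower as reported, 0 and 0 with a pseudocount of 5, 8 and 2 after rescaling to a median of 0, 14 and 13 at 1.5-fold, 1 and 0 at 3-fold, and 3 higher at a mean of at least 5 FPKM. With the background receptor median subtracted, the control shares were 7.54% for Adora1 and 57.3% for Adora2b. The 5 genes whose interval left out no difference became 6 with the longest transcript model. These moves follow from how each alternative is built, by its scale, threshold or filter. No paired analysis was possible because each group has 1 library. Depth limits the 10 genes to about 19 to 218 reads per library.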
